A study of Arabidopsis thaliana with 30 samples.

Results

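Roots of an Arabidopsis line carrying RGI1 and BAK1 transgenes (RiD-RGI1/BAK1 in the labels) were compared with wild-type Col-0 roots after both had been given 1 µM rapamycin for 4 h. The comparison was chosen by genotype and treatment in the labels and rests on 6 of the 30 libraries of the study, 3 of each genotype. Seedlings were 7 days old, the line has the ecotype Col-0, and mRNA of roots was sequenced. Mock groups of the same line and wild type, 3 libraries each, were titled DMSO and treated for 4 h without rapamycin. This mock pair is used below to show where this comparison differs. So is a RiD-RGI5/BAK1 line with its own wild type (3 libraries each, 100 nM rapamycin for 4 h). The sources used here do not give the promoters of the transgenes, the number of independent transformants or the origin of the replicates from separate plants. The p-values therefore measure the spread between these libraries, which may be technical.

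RGI1 is a leucine-rich repeat receptor kinase of the family that binds RGF peptides, small secreted signals that keep the root meristem active through the PLETHORA transcription factors. BAK1 is a co-receptor kinase that joins RGI1 and many other receptors, among them the brassinosteroid receptor and immune receptors, once their ligands bind. Rapamycin joins proteins that carry an FKBP domain to proteins that carry an FRB domain, and is used in this way to bring chosen proteins together without their ligand. The domains of these transgenes are not described in the sources used here. The comparison gives the net state of such roots next to wild type at the same dose.

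Levels are given as TPM (transcripts per 1000000), the abundance of a gene's transcripts, corrected for length, among all transcripts of a library. Triplets of values stand in the order of replicates 1, 2 and 4 for wild type and 1, 2 and 3 for the line. Where 2 triplets are given without naming the groups, wild type comes first. Fold changes are the line minus wild type on the log2(TPM + 1) scale, with ± for the standard error. That scale understates changes of weakly expressed genes. A gene was called when its limma p, adjusted over all genes tested with the Benjamini-Hochberg method, was under 0.05. Of 19634 genes tested, 1580 (8.05%) were called, 372 (1.89%) higher and 1208 (6.15%) lower in the line, and 77 of the calls had a log2 fold change of at least 1 in size. The groups did not overlap in 4975 (25.3%) of all genes tested, in 372 of the 372 genes called higher and in 1204 of the 1208 called lower. Where groups of a called gene are said below not to overlap, this describes the values and adds nothing to the call. The median log2 fold change of all genes was -0.05 and 66.2% of genes lay below 0. This balance depended on the scaling: with median-ratio scaling 664 genes were called higher and 783 lower, and with quantile normalization 702 and 818. The count of calls fell to 905 without wild-type replicate 2, to 905 without wild-type replicate 4 and to 982 without line replicate 1.

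The 6 libraries held 19055 to 19284 genes at 1 TPM or more. A single locus, AT1G15405, took 6.63 to 9.52% of all TPM in wild type and 8.51 to 11.9% in the line, and since TPM add up to the same total in each library, its part in the balance of calls was not tested. Of 12 markers of root tissues, 11 were tested and none was called, and their summed level was 278.7 to 312.8 TPM in wild type and 272.7 to 294.9 TPM in the line. The cortex marker CO2, at 0.452 to 0.956 TPM, was under the level for testing. Of 10 genes of green shoot tissue, 7 were tested and 2 were called, both higher. These were RBCS1A, a small subunit of Rubisco (9.64, 8.55 and 7.36 TPM in wild type, 16.6, 22.8 and 16.9 TPM in the line, log2 fold change 1.05 ± 0.12, limma adjusted p = 0.000176), and LHCB1.3, a light-harvesting protein (15.9, 11.2 and 9.55 TPM against 23.6, 31.1 and 16.1 TPM). The call of LHCB1.3 (log2 fold change 0.88 ± 0.23, limma adjusted p = 0.0327) was lost without wild-type replicate 2 or 4 or line replicate 1 or 2 (highest limma adjusted p = 0.125). Of the 7 tested, RCA and PSAD1 had log2 fold changes below 0 and were not called. RCA was at 8.08 to 8.67 TPM in wild type and 6.47 to 7.51 TPM in the line (log2 fold change -0.27 ± 0.10, limma adjusted p = 0.114). The green genes summed to 67.4 to 71.5 TPM in wild type and 76.8 to 118.4 TPM in the line, RBCS2B was at no more than 0.176 TPM, and their part in other differences was not tested.

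The receptor genes of the construct were higher in the line. RGI1 stood at 26.8, 30.2 and 29.9 TPM in wild type and at 221, 227 and 237 TPM in the line (log2 fold change 2.94 ± 0.05, limma adjusted p = 9.49e-12). BAK1 stood at 51.4, 52.4 and 54.05 TPM in wild type and at 189.7, 205 and 207 TPM in the line (log2 fold change 1.91 ± 0.04, limma adjusted p = 4.89e-11). Each line library was above each wild-type library for both genes, with native and introduced copies counted together. None of the other 11 receptors and co-receptors on the list of 13 was called. RGI5, the receptor used in the second line, was at 2.01, 2.14 and 3.10 TPM in wild type and 1.90, 2.38 and 2.31 TPM in the line (limma adjusted p = 0.759), so that the groups overlapped. FKBP12, the plant's relative of the protein that binds rapamycin in yeast and animals, was at 329, 334 and 332 TPM and 350.5, 343 and 345 TPM (limma adjusted p = 0.46). TOR, a growth-regulating kinase, was at 22.7, 25.8 and 25.9 TPM and 20.9, 25.1 and 21.9 TPM (limma adjusted p = 0.311).

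Genes known to act below RGF perception were not called. Among 9 members of the pathway, which includes the MAP kinase cascade MKK4, MKK5, MPK3 and MPK6 and the transcription factor RITF1, 0 passed the test in either direction, with a median log2 fold change of -0.09 beside -0.05 over all genes. RITF1 stood at 12.4, 16.7 and 16.1 TPM in wild type and 15.01, 16.1 and 14.98 TPM in the line. Of 13 tested genes of the root stem cell niche and the PLETHORA family, 0 passed, with a median of -0.13. PLT1, a master regulator of the meristem, was at 6.92, 8.74 and 7.93 TPM in wild type and 6.25, 6.49 and 6.48 TPM in the line, without overlap of the groups, but its adjusted p missed the threshold (log2 fold change -0.25 ± 0.07, limma adjusted p = 0.056). PLT2 was at 6.76, 7.40 and 6.71 TPM and 5.63, 5.74 and 5.99 TPM (limma adjusted p = 0.108). The 12 cell division genes, among them the mitotic cyclins CYCB1;1 and CYCB1;2 and the replication clamp PCNA1, had 0 calls and a median of -0.06. At an unadjusted p under 0.05, 2 members of the RGF pathway list, 5 of the stem cell list and 0 of the cell division list passed, beside 4590 of all 19634 genes. Limma was the single tool run.

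Among 15 tested genes of lateral root initiation and emergence, 1 was called higher and 1 lower. GATA23, an early factor of founder cells, was at 4.88, 5.37 and 4.19 TPM in wild type and 6.47, 7.99 and 8.32 TPM in the line (log2 fold change 0.56 ± 0.14, limma adjusted p = 0.0315). The polygalacturonase PGLR, which loosens walls over an emerging root, was at 4.89, 3.52 and 4.35 TPM and 3.23, 2.57 and 2.58 TPM (log2 fold change -0.46 ± 0.12, limma adjusted p = 0.0348). The 3 line libraries were above all wild-type libraries for GATA23 and below them for PGLR. Neither call held in every fit without a library. GATA23 was lost without wild-type replicate 1 or 4 or line replicate 2 or 3. PGLR was lost without the same 4 or the mock line replicate 3 (highest limma adjusted p = 0.119 and 0.107). LBD16, LBD18 and LBD29, which act in founder cell division, were not called (limma adjusted p = 0.602, 0.648 and 0.958), and PUCHI, at 0.438 to 0.911 TPM, was under the level for testing. The RGF peptide genes gave 1 call higher and 2 lower of 9 tested. RGF3, the member on the higher side, lost its call without wild-type replicate 1 or 4 or line replicate 1 or 3, and leaving out a library ended the call of RGF8 in 10 of 12 cases. RGF7, on the lower side, was at 38.5, 32.7 and 38.5 TPM in wild type and 22.2, 21.3 and 22.6 TPM in the line (log2 fold change -0.70 ± 0.12, limma adjusted p = 0.00371).

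**Figure D1:**
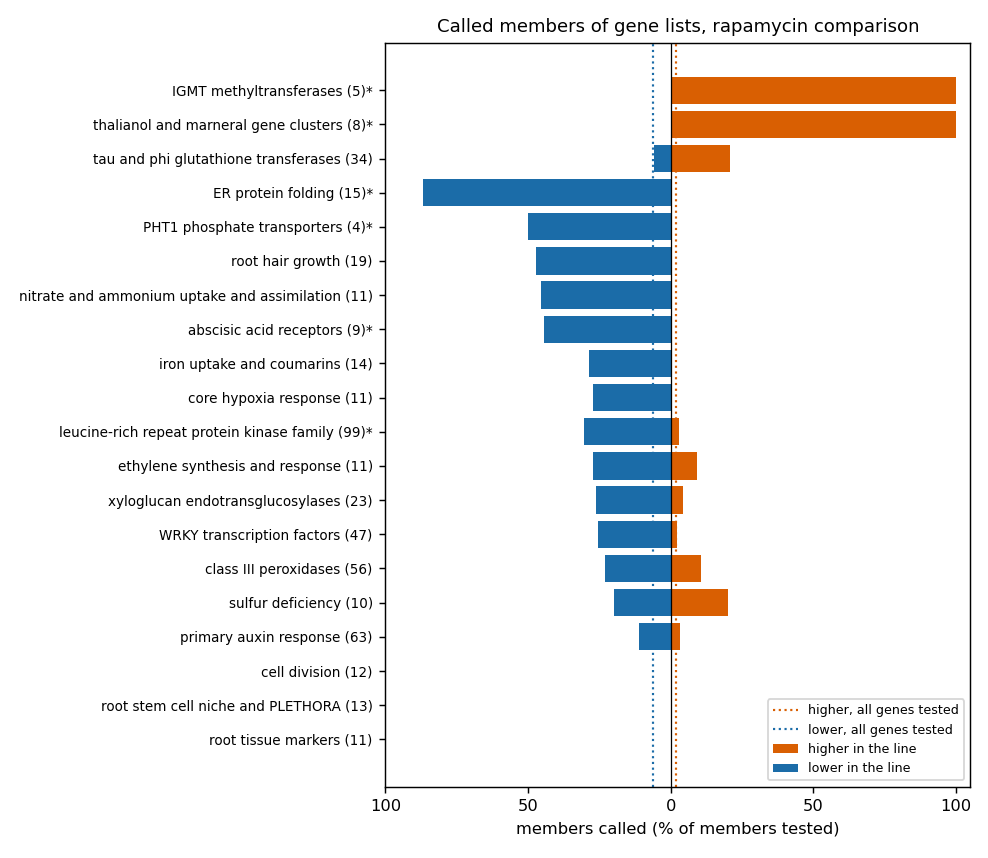
Called members of 20 gene lists in the rapamycin comparison, as percent of the members tested (number in brackets), higher in the line to the right and lower to the left. Dotted lines mark the share of all genes tested that was called in each direction (1.89% higher, 6.15% lower), and an asterisk marks lists chosen after the values were seen; bars reach farthest for the IGMT genes, the triterpene clusters and ER protein folding.

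Transporters and regulators of nutrient uptake gave calls in part of each list. PHT1;1, the main phosphate transporter of the root surface, stood at 552, 497 and 509 TPM in wild type and 239, 250.2 and 285 TPM in the line (log2 fold change -1.01 ± 0.08, limma adjusted p = 1.81e-05). Its neighbour PHT1;2 stood at 4.23, 3.06 and 3.31 TPM and 0.787, 0.491 and 0.987 TPM (log2 fold change -1.37 ± 0.16, limma adjusted p = 0.000229), with the caution that these near-identical copies can trade reads. In both cases every line library was below every wild-type library. Of 4 tested PHT1 transporters, a list chosen after the values were seen, these 2 were called. PHT1;4 was at 17.7, 15.2 and 15.6 TPM and 14.7, 15.1 and 17.2 TPM and PHT1;9 at 1.54, 1.80 and 1.73 TPM and 1.24, 1.24 and 0.562 TPM (limma adjusted p = 0.8 and 0.106).

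For nitrogen, 5 of 11 tested genes were lower and 0 higher, with a median of -0.27 beside -0.05 over all genes, and 3 were lower with quantile normalization. The counts with mock were also 5 lower and 0 higher, where 14.5% of all genes were lower, beside 6.15% with rapamycin. NRT2.1, the high-affinity nitrate transporter, was at 174, 91.1 and 87.5 TPM in wild type and 51.9, 41.3 and 62.8 TPM in the line (log2 fold change -1.11 ± 0.23, limma adjusted p = 0.0111). Wild-type replicate 1 was the highest by far, and the call held without it or any other library (highest limma adjusted p = 0.0394). The ammonium transporter AMT1;3 was at 36.5, 31.6 and 31.5 TPM and 17.9, 18.1 and 20.9 TPM (log2 fold change -0.78 ± 0.08, limma adjusted p = 0.000145). AMT1;1, of the same family, was at 50.3, 49.4 and 50.1 TPM and 35.9, 36.6 and 39.4 TPM (log2 fold change -0.41 ± 0.06, limma adjusted p = 0.0017). Neither gene's groups overlapped. GLN1;2, a cytosolic glutamine synthetase and an abundant transcript of these roots, was at 3019, 2578 and 2466 TPM in wild type and 1835, 1597 and 1993 TPM in the line (log2 fold change -0.57 ± 0.10, limma adjusted p = 0.00477). That call was lost with quantile normalization (limma adjusted p = 0.0576). NRT1.5, which loads nitrate into the xylem, had a mean of 268 against 367 TPM (log2 fold change -0.45, limma adjusted p = 0.0325), line first.

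Sulfur genes moved in both directions, with 2 higher and 2 lower of 10 tested. The root sulfate transporters were on the lower side. SULTR1;1 was at 9.10, 9.50 and 9.07 TPM in wild type and 4.07, 3.70 and 3.94 TPM in the line (log2 fold change -1.06 ± 0.08, limma adjusted p = 1.28e-05). SULTR1;2 was at 366, 349 and 402 TPM and 226, 201 and 219 TPM (log2 fold change -0.79 ± 0.07, limma adjusted p = 3.3e-05). LSU1 and LSU2, small proteins known from sulfur-starved plants, were on the higher side. LSU1 was at 1.03, 1.36 and 1.48 TPM in wild type and 5.77, 4.70 and 5.37 TPM in the line (log2 fold change 1.46 ± 0.19, limma adjusted p = 0.000476). LSU2 was at 3.95, 3.18 and 5.15 TPM and 7.27, 6.67 and 8.18 TPM (log2 fold change 0.73 ± 0.15, limma adjusted p = 0.00883). As in nearly all called genes, the groups did not overlap. With all 30 libraries in a single fit LSU2 was not called (limma adjusted p = 0.197). The sulfate reductases APR1, APR2 and APR3, also markers of sulfur status, were not called (limma adjusted p = 0.823, 0.71 and 0.297).

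Iron genes gave 4 calls lower and 0 higher of 14 tested, with a median of -0.27. With mock, 5 were lower and 0 higher, and 3 and 0 with median-ratio scaling, where 14.5% of all genes were lower with mock in the main fit. FIT, the transcription factor that switches on iron uptake, was at 37.4, 40.9 and 41.6 TPM in wild type and 21.2, 17.64 and 18.1 TPM in the line (log2 fold change -1.04 ± 0.09, limma adjusted p = 2.28e-05), the clearest of the list. Its partner BHLH39 was at 30.6, 36.5 and 36.4 TPM and 23.2, 25.2 and 26.5 TPM (log2 fold change -0.45 ± 0.10, limma adjusted p = 0.0175). The coumarin exporter PDR9 was at 73.9, 72.7 and 75.1 TPM and 61.3, 66.5 and 64.6 TPM (log2 fold change -0.20 ± 0.04, limma adjusted p = 0.0124). The groups were apart in these 3 genes, but BHLH39 lost its call without wild-type replicate 2 or 4 or line replicate 1 (highest limma adjusted p = 0.0755) and PDR9 without wild-type replicate 4 (limma adjusted p = 0.0531). IRT1, the iron transporter that FIT controls, had a mean of 3.59 against 7.73 TPM and missed the threshold (log2 fold change -0.94, limma adjusted p = 0.0617), as did the reductase FRO2 (limma adjusted p = 0.209). The count of 4 fell to as few as 1 without wild-type replicate 2 or 4 or line replicate 1, FIT being called in every such fit (highest limma adjusted p = 0.000219). The aquaporin list was gathered by gene symbol, so that not all of its 30 tested members need be aquaporins. Of these members, 3 were lower (5 without line replicate 2), beside 6.15% of all genes. With mock, 6 were lower and 1 higher, beside 14.5% lower and 2.00% higher over all genes. With mock and median-ratio scaling, 2 members were lower and 4 higher. The list was led by NIP2;1, known as a lactic acid channel of roots, at 7.72, 9.64 and 6.91 TPM and 1.65, 1.99 and 2.85 TPM (log2 fold change -1.53 ± 0.15, limma adjusted p = 6.36e-05). NIP3;1 was at 24.2, 24.5 and 25.4 TPM and 13.1, 17.64 and 14.99 TPM (log2 fold change -0.67 ± 0.09, limma adjusted p = 0.000827).

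**Figure D2:**
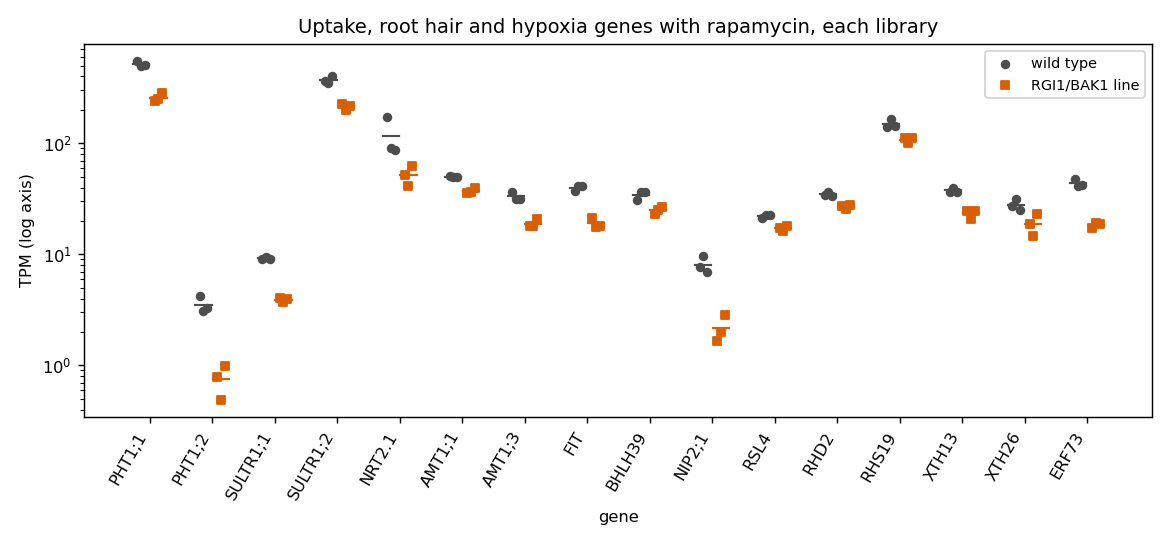
Level of 16 genes with rapamycin in each library (TPM, log axis), circles for wild type and squares for the RGI1/BAK1 line, with bars at the group means. PHT1;1 stands at 552, 497 and 509 TPM in wild type and 239, 250.2 and 285 TPM in the line, and the genes shown were chosen among those called lower, nearly all of which have groups that do not overlap (1204 of 1208, beside 25.3% of all genes tested).

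Of 19 tested genes of root hair growth, 9 were lower and 0 higher, with a median of -0.33, and 6 were still called lower and 1 higher with median-ratio scaling. The count was 5 to 9 when single libraries were left out, and lowest without wild-type replicate 2. RSL4, the transcription factor that sets hair length, was at 21.2, 22.9 and 22.8 TPM in wild type and 17.3, 16.4 and 17.96 TPM in the line (log2 fold change -0.35 ± 0.05, limma adjusted p = 0.00107). RHD2, the NADPH oxidase of the growing hair tip, was at 34.4, 36.3 and 33.4 TPM and 27.3, 25.4 and 27.6 TPM (log2 fold change -0.36 ± 0.06, limma adjusted p = 0.00155). The peroxidase RHS19 was at 141, 165 and 142 TPM and 111, 102 and 112 TPM (log2 fold change -0.46 ± 0.06, limma adjusted p = 0.000856). MOP10 was at 129.7, 142 and 130.1 TPM and 103, 99.1 and 110.4 TPM (log2 fold change -0.36 ± 0.06, limma adjusted p = 0.00296). The 3 line libraries were below the lowest wild-type library in each of these. RSL4 and MOP10 were not called with all 30 libraries in a single fit (limma adjusted p = 0.126 and 0.0858). Fate genes of the epidermis, which decide between hair and non-hair cells, had 0 calls of 10, and the hair cell marker COBL9 stood at 9.73 to 12.5 TPM in wild type and 9.31 to 10.9 TPM in the line. In bulk roots, fewer cells of a type and less RNA per cell cannot be told apart.

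Wall enzymes gave calls in both directions, more of them lower. Of 23 xyloglucan endotransglucosylases, which cut and rejoin wall polymers, 6 were lower and 1 higher, and 3 and 2 with median-ratio scaling. XTH13 was at 36.7, 39.8 and 36.6 TPM in wild type and 24.8, 20.9 and 24.8 TPM in the line (log2 fold change -0.66 ± 0.08, limma adjusted p = 0.000267). XTH12 was at 32.8, 41.5 and 35.7 TPM and 23.04, 20.05 and 26.5 TPM (log2 fold change -0.64 ± 0.10, limma adjusted p = 0.00154). Both lay below wild type in every line library. XTH32, the member that was higher, was at 17.1, 15.3 and 17.03 TPM and 21.3, 26.1 and 25.1 TPM (log2 fold change 0.53 ± 0.09, limma adjusted p = 0.00327). XTH12 and XTH13 are close neighbours in sequence and can trade reads. The count of 6 fell to as few as 3 without wild-type replicate 2 or line replicate 1. FLA6, a fasciclin-like wall protein, was at 4.603, 4.59 and 6.55 TPM and 2.101, 1.33 and 2.85 TPM (log2 fold change -1.03 ± 0.18, limma adjusted p = 0.00342). Class III peroxidases, which act on wall polymers and reactive oxygen, were lower in 13 and higher in 6 of 56, and lower in 6 and higher in 8 with median-ratio scaling, so that their balance turned with the scaling. This list was gathered by annotated name and may hold other enzymes, such as DOX1, which was not called. AT3G01190 was the clearest, at 198, 195 and 186 TPM in wild type and 116, 115 and 110.2 TPM in the line (log2 fold change -0.76 ± 0.06, limma adjusted p = 1.28e-05). The count of 13 fell to as few as 5 without wild-type replicate 2 or 4 or line replicate 1 or 2. The count of 6 fell to as few as 2 without wild-type replicate 2 or 4 or line replicate 2 or 3.

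Hypoxia genes were lower where they were called, in 3 of 11. ERF73, a transcription factor of the group that stabilises under low oxygen, was at 47.6, 41.6 and 41.9 TPM in wild type and 17.39, 19.1 and 18.6 TPM in the line (log2 fold change -1.20 ± 0.09, limma adjusted p = 1.09e-05), far apart from wild type in every library. SUS4, a sucrose synthase, was at 16.5, 12.997 and 10.8 TPM and 6.64, 6.83 and 9.02 TPM (log2 fold change -0.75 ± 0.15, limma adjusted p = 0.01). PDC1, the pyruvate decarboxylase of fermentation, was at 50.3, 41.2 and 33.7 TPM and 19.3, 18.8 and 33.4 TPM (log2 fold change -0.81 ± 0.19, limma adjusted p = 0.0199). It lost its call without wild-type replicate 1 or 2 or line replicate 1 or 2 (highest limma adjusted p = 0.0881). ADH1, the alcohol dehydrogenase of the same pathway, had a mean of 17.1 against 27.9 TPM without a call (limma adjusted p = 0.0692). The count was 2 without wild-type replicate 1 and rose to at most 6 when wild-type replicate 4 or line replicate 3 was left out.

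Of 9 tested abscisic acid receptors of the PYR/PYL family, a list chosen after the values were seen, 4 were lower and 0 higher: PYL4, PYL5, PYL6 and PYR1. PYL5 was at 85.3, 82.4 and 74.3 TPM in wild type and 42.03, 42.2 and 43.7 TPM in the line (log2 fold change -0.90 ± 0.06, limma adjusted p = 4.12e-06). PYL6 was at 53.9, 45.4 and 41.1 TPM and 16.3, 14.6 and 21.2 TPM (log2 fold change -1.39 ± 0.12, limma adjusted p = 3.5e-05). PYL4 was at 50.9, 48.8 and 53.5 TPM and 30.6, 33.6 and 35.4 TPM (log2 fold change -0.61 ± 0.07, limma adjusted p = 0.000196). All 3 genes encode soluble receptors of the hormone. PYR1 was at 220.5, 204 and 206 TPM and 157, 160.2 and 168 TPM (log2 fold change -0.38 ± 0.05, limma adjusted p = 0.000832). The 4 calls held in every fit without a library. The other 5, PYL1, PYL2, PYL7, PYL8 and PYL9, were not called (limma adjusted p from 0.141 to 0.998). Of these, PYL8, which acts in root growth, was at 99.1, 100.1 and 101 TPM and 93.1, 98.96 and 96.1 TPM (limma adjusted p = 0.445). With mock, 3 of the 9 were lower and 0 higher, beside 14.5% of all genes lower, and 1 and 1 with median-ratio scaling. In the RGI5 line against its own wild type at 100 nM, 4 of 10 tested members were lower and 0 higher, beside 1.32% of all genes lower.

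Chaperones of the endoplasmic reticulum, also chosen after the values were seen, were lower in 13 and higher in 0 of 15 tested, with a median of -0.29. CNX1, the calnexin that holds glycoproteins until they fold, was at 127, 125 and 122 TPM in wild type and 72.3, 78.4 and 87.6 TPM in the line (log2 fold change -0.65 ± 0.07, limma adjusted p = 0.000152). BIP2, the lumenal HSP70, was at 354, 393 and 361 TPM and 256, 253 and 285 TPM (log2 fold change -0.48 ± 0.06, limma adjusted p = 0.000479). Its co-chaperone ERDJ3B was at 50.6, 55.1 and 55.5 TPM and 39.4, 37.7 and 39.3 TPM (log2 fold change -0.46 ± 0.06, limma adjusted p = 0.000582). The 3 genes were lower without overlap. BIP1 is nearly identical to BIP2, so that their reads can be split between them, and it was at 305, 315 and 293 TPM and 216, 218 and 254 TPM (log2 fold change -0.41 ± 0.06, limma adjusted p = 0.00173). The calreticulins CRT1A and CRT3 were the members without a call (limma adjusted p = 0.056 and 0.776). CRT3, at 22.3, 22.6 and 23.04 TPM in wild type and 21.6, 24.99 and 23.4 TPM in the line, overlapped between the groups. The count was 8 with median-ratio scaling and 8 without wild-type replicate 2, and it also fell by more than 1.5 times without line replicate 1. With mock, 0 of the 15 were called, or 1 higher with either other scaling. The test of the difference between the comparisons called 5 of the 15 lower, 8 with median-ratio scaling and 10 with quantile normalization, and did not pass for the others.

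Kinases of the leucine-rich repeat protein kinase family, by the product name of the annotation, were lower in 30 and higher in 3 of 99 tested, and in 27 and 3 with median-ratio scaling. With mock, 34 were lower and 1 higher, beside 14.5% of all genes lower, and 24 and 4 with median-ratio scaling. This list was chosen after the values were seen. The 3 higher calls fell to as few as 0 without wild-type replicate 1 or 2 or line replicate 3. AT5G37450 was at 6.28, 4.65 and 4.21 TPM in wild type and 0.921, 0.665 and 1.02 TPM in the line (log2 fold change -1.68 ± 0.12, limma adjusted p = 1.22e-05), with every line library below every wild-type library. MEE39 had a mean of 5.99 against 11.6 TPM (limma adjusted p = 2.78e-05) and IOS1, known from immune receptor complexes with BAK1, 30.003 against 44.2 TPM (limma adjusted p = 0.00017), line first. AT1G51790, AT1G51830, AT1G51850, AT1G51860 and AT1G51890, a run of neighbouring and similar copies that can trade reads, were all lower, with log2 fold changes of -0.79, -0.60, -0.35, -0.37 and -0.46.

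WRKY transcription factors, many of them regulators of defence, were lower in 12 and higher in 1 of 47, and lower in 10 and higher in 2 with median-ratio scaling. With mock, 23 were lower and 1 higher, beside 14.5% of all genes lower, and 10 and 3 with median-ratio scaling. WRKY9 was at 33.2, 36.1 and 37.2 TPM in wild type and 22.9, 24.4 and 24.7 TPM in the line (log2 fold change -0.55 ± 0.06, limma adjusted p = 0.00017). WRKY11 was at 30.4, 30.3 and 31.7 TPM and 22.2, 20.7 and 22.5 TPM (log2 fold change -0.48 ± 0.06, limma adjusted p = 0.000545). The single member on the higher side was WRKY45, with a mean of 24.6 against 14.3 TPM, line first (limma adjusted p = 0.00192). Of 19 genes of pattern-triggered immunity, 3 were lower and 1 higher: WRKY22, WRKY29 and the chitin receptor CERK1 against YLS9. YLS9, a marker of defence and senescence, was at 5.33, 8.47 and 8.17 TPM and 11.2, 13.6 and 11.8 TPM (log2 fold change 0.68 ± 0.14, limma adjusted p = 0.0109). It was not called with all 30 libraries in a single fit (limma adjusted p = 0.0889). The count of 3 fell to as few as 1 without wild-type replicate 2 or 4 or line replicate 1. PEN3, which exports defence compounds, was at 146, 138 and 143 TPM and 104.7, 113 and 108 TPM (log2 fold change -0.39 ± 0.04, limma adjusted p = 0.000166).

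On the higher side, the clearest group was a pair of root gene clusters that make triterpenes, the thalianol and marneral clusters of chromosome 5, a list chosen after the values were seen. All 8 genes tested were higher, with a median of 0.83, under both scalings and in every fit without a library. In the thalianol cluster, the synthase THAS1 (chr5:19456837-19461706, TAIR10.1) was at 187, 212 and 234 TPM in wild type and 321, 352 and 398 TPM in the line (log2 fold change 0.75 ± 0.10, limma adjusted p = 0.000566). The P450 CYP705A5 was at 226, 253 and 286 TPM and 436, 474 and 515 TPM (log2 fold change 0.90 ± 0.09, limma adjusted p = 7.61e-05). In the marneral cluster, the synthase MRN1 (chr5:17053453-17058245) was at 8.86, 9.44 and 12.2 TPM and 22.2, 30.8 and 23.4 TPM (log2 fold change 1.24 ± 0.15, limma adjusted p = 0.000253). The P450 CYP705A12 was at 34.5, 46.6 and 51.95 TPM and 77.5, 93.8 and 97.5 TPM (log2 fold change 1.01 ± 0.14, limma adjusted p = 0.000868). These 4 genes lay above wild type in each line library, as the 372 genes called higher did. The acyltransferase THAA2, nearest to the threshold, was at 44.9, 51.99 and 54.7 TPM and 61.3, 75.8 and 71.5 TPM (log2 fold change 0.45 ± 0.10, limma adjusted p = 0.0144). With mock, 7 of the 8 genes were higher in the line too.

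**Figure D3:**
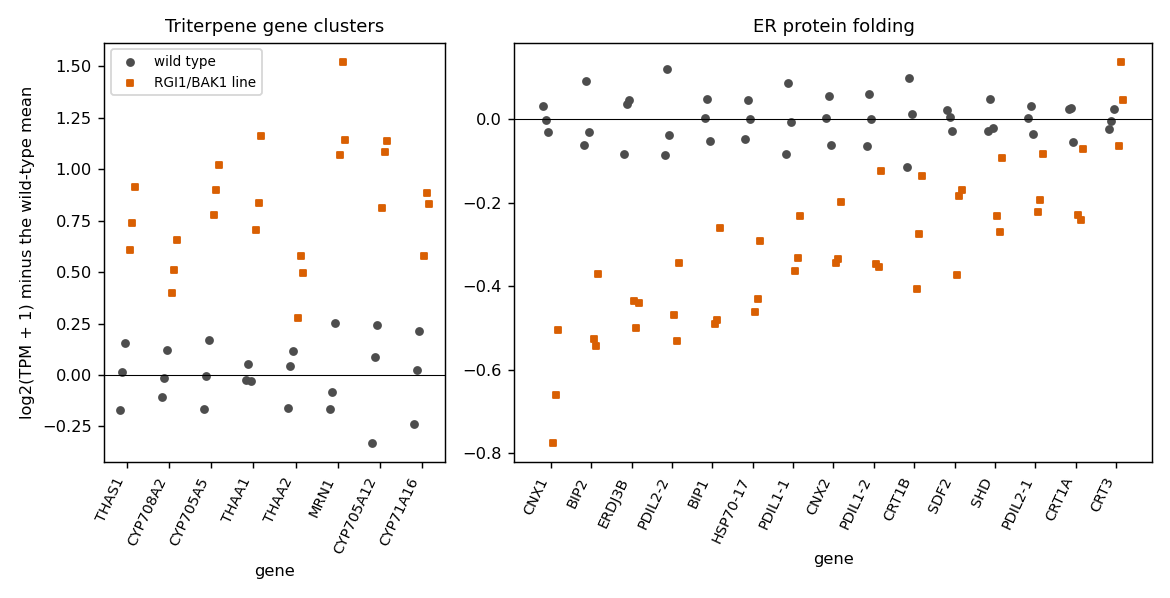
Difference of each library from the wild-type mean (log2(TPM + 1)) with rapamycin, for 8 genes of the thalianol and marneral clusters (left) and 15 genes of protein folding in the endoplasmic reticulum (right). Circles are wild type and squares the line; all 8 cluster genes lie above wild type, and 13 of the 15 folding genes were called lower.

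Single genes with the largest differences were of mixed kind. AT2G01422, a gene of a non-coding RNA in the annotation, was at 7.58, 9.24 and 6.71 TPM in wild type and 39.8, 45.5 and 42.2 TPM in the line (log2 fold change 2.31 ± 0.11, limma adjusted p = 1.63e-07). QQS, an orphan gene known to alter carbon and nitrogen partitioning, was at 1.31, 3.84 and 1.86 TPM and 9.09, 15.6 and 7.32 TPM (log2 fold change 1.81 ± 0.27, limma adjusted p = 0.00121). DXPS1, an enzyme of plastid isoprenoid synthesis by its name, was at 2.64, 2.70 and 2.21 TPM and 9.17, 7.76 and 12.3 TPM (log2 fold change 1.59 ± 0.18, limma adjusted p = 0.000204). The groups were apart in these 3 genes. AT1G76728 was listed at 0 in the 3 wild-type libraries and at 6.46, 6.78 and 6.44 TPM in the line (limma adjusted p = 0.000983). It was also called in the test of the difference between the rapamycin and the mock comparison (3.63 on the log2 scale). Its difference from wild type was thus not the same with mock. In the opposite direction AT5G52355, annotated as a serine tRNA gene, was at 8.92, 4.77 and 4.41 TPM in wild type and listed at 0 in the 3 line libraries (limma adjusted p = 1.13e-05, and 0.0889 with all 30 libraries in a single fit). AT2G36690, an oxygenase of the 2-oxoglutarate family, was at 16.5, 16.7 and 18.9 TPM and 3.71, 4.61 and 3.13 TPM (log2 fold change -1.94 ± 0.11, limma adjusted p = 1.84e-06). PP2-A6, a phloem lectin by its family, was at 15.4, 11.7 and 12.1 TPM and 3.25, 3.82 and 3.57 TPM (log2 fold change -1.62 ± 0.10, limma adjusted p = 4.52e-06). Both were lower in every line library. HR2, a relative of the mildew resistance gene RPW8, was at 19.5, 16.9 and 18.4 TPM and 7.46, 5.05 and 6.09 TPM (log2 fold change -1.43 ± 0.10, limma adjusted p = 1.09e-05). CIPK13, a kinase of calcium signalling, was at 9.34, 13.8 and 12.9 TPM and 2.88, 3.83 and 3.45 TPM (log2 fold change -1.56 ± 0.13, limma adjusted p = 2.39e-05). These genes were likewise lower without overlap. PSK5, a precursor of the growth peptide phytosulfokine named here after its values were seen, was at 37.9, 39.002 and 45.9 TPM and 73.7, 73.5 and 75.7 TPM (log2 fold change 0.85 ± 0.09, limma adjusted p = 9.6e-05).

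The same line and wild type with mock, in 6 other libraries, show which of these differences were there without rapamycin. They gave 3239 calls (16.5%), 393 (2.00%) higher and 2846 (14.5%) lower, and 729 higher and 964 lower with median-ratio scaling, a scaling that moved the median of all genes by 0.10. Of the 372 genes higher with rapamycin, 140 (37.6%) were also higher with mock, or 35.6% of the mock list. Of the 1208 lower genes, 653 (54.1%) were also lower with mock, or 22.9% of that list, while 545 were not called there and 10 were higher. Among the 653 were FIT, PEN3, NIP3;1 and AT3G01190, with log2 fold changes of -0.65, -0.49, -0.84 and -0.60 with mock. Across the 19634 genes, log2 fold changes of the comparisons had a Pearson r of 0.445, with the line and its wild type in common but no library. Within the line, rapamycin against mock gave 796 calls (4.05%), 503 (2.56%) higher and 293 (1.49%) lower. Within wild type it gave 0 calls by limma, with 1290 genes at an unadjusted p below 0.05.

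The test of the difference between the rapamycin and the mock comparison called 245 genes (1.25%), 161 (0.820%) where the line's difference from wild type was higher with rapamycin and 84 (0.428%) where it was lower. This split was 119 and 107 with median-ratio scaling and 121 and 111 with quantile normalization. Crossing genes were those on opposite sides of wild type: 21 were lower with mock and higher with rapamycin, and 10 were higher with mock and lower with rapamycin. The first set held, among others, glutathione transferases, methyltransferases of indole glucosinolates and defence regulators. The second held, among others, xyloglucan endotransglucosylases and the ethylene-forming oxidase ACO1. Class III peroxidases were in both sets, AT2G18980 and AT4G37530 in the first and AT1G05240 and AT1G34510 in the second. Of the 56 genes of the peroxidase list, the test of the difference called 8 higher and 4 lower. The crossing genes were picked by their calls in these very comparisons, so that their values are a description.

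IGMT genes methylate indole glucosinolates for defence, and IGMT2 and IGMT4 of the 5 members crossed. All 5 members were higher with rapamycin, a list chosen after the values were seen, and 4 or 5 were when single libraries were left out, IGMT1 being lost without wild-type replicate 1 or line replicate 2 or 3. IGMT2 was at 9.04, 7.48 and 10.5 TPM in wild type with mock (replicates 1, 2 and 3) and at 3.71, 2.997 and 2.93 TPM in the line with mock (replicates 1, 3 and 4). With rapamycin it was at 6.37, 5.84 and 5.52 TPM in wild type and 11.1, 9.63 and 13.3 TPM in the line (log2 fold change 0.83 ± 0.13, limma adjusted p = 0.00167). The difference between the comparisons was 2.07 ± 0.18 on the log2 scale (limma adjusted p = 0.000825). The line was thus below wild type in all mock libraries and above it in all rapamycin libraries. IGMT4 ran from 9.52, 8.31 and 12.2 TPM and 5.63, 6.94 and 5.58 TPM with mock to 9.80, 10.5 and 9.90 TPM and 20.7, 21.8 and 15.5 TPM with rapamycin (log2 fold change 0.87 ± 0.14, limma adjusted p = 0.00204). IGMT3 overlapped with mock, at 45.2, 42.97 and 51.1 TPM in wild type and 51.8, 49.9 and 44.1 TPM in the line. With rapamycin it was at 48.04, 48.2 and 45.5 TPM and 78.9, 84.4 and 92.3 TPM (log2 fold change 0.83 ± 0.08, limma adjusted p = 5.53e-05). IGMT5 was higher with mock too (log2 fold change 0.57, limma adjusted p = 0.000474) and with rapamycin (log2 fold change 0.39 ± 0.07, limma adjusted p = 0.00657), with a difference of -0.17 ± 0.11 (limma adjusted p = 0.575). IGMT1 had a log2 fold change of 0.36 with mock (limma adjusted p = 0.0774) and 0.57 with rapamycin (limma adjusted p = 0.0192), with a difference of 0.21 ± 0.18 (limma adjusted p = 0.728). IGMT1 to IGMT4 lie side by side on chromosome 1 and are similar enough to trade reads.

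Glutathione transferases, which conjugate toxic and defence compounds, had 7 members higher and 2 lower of 34 with rapamycin, where 3 were higher and 15 lower with mock, and 9 were called higher and 0 lower in the test of the difference. GSTF6 was at 269, 215 and 297 TPM in wild type and 121, 109.6 and 91.5 TPM in the line with mock. With rapamycin it was at 241, 224 and 187 TPM and 368, 331 and 354 TPM (log2 fold change 0.70 ± 0.13, limma adjusted p = 0.0052), and the difference was 1.96 ± 0.18 (limma adjusted p = 0.000825). GSTF7, a near-identical neighbour, was at 350.4, 291 and 348 TPM and 161, 159.6 and 125 TPM with mock and 365, 292 and 283 TPM and 452, 409 and 427 TPM with rapamycin (log2 fold change 0.46 ± 0.11, limma adjusted p = 0.0268). GSTU10 was at 13.3, 13.5 and 14.5 TPM and 9.52, 8.31 and 8.35 TPM with mock and 15.3, 12.7 and 14.7 TPM and 21.8, 18.98 and 18.16 TPM with rapamycin (log2 fold change 0.44 ± 0.08, limma adjusted p = 0.0073). In these 3 genes the line lay below wild type in every mock library and above it in every rapamycin library. GSTF14 and GSTF8 were the lower members, GSTF14 at 88.1, 57.2 and 48.8 TPM and 21.3, 17.37 and 26.1 TPM (log2 fold change -1.51 ± 0.20, limma adjusted p = 0.000594). With all 30 libraries in a single fit the rapamycin calls of IGMT2, IGMT4, GSTF6, GSTF7 and GSTU10 were lost (limma adjusted p = 0.132, 0.136, 0.0976, 0.331 and 0.249). The count of 7 was 3 to 6 without single libraries and fell by more than 1.5 times without any of the 6 rapamycin libraries but line replicate 2, and without the mock wild-type replicate 2. GSTF7 itself was lost without wild-type replicate 2 or 4 or line replicate 1 or 3 (highest limma adjusted p = 0.108).

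The bases before the annotated starts of IGMT2 and IGMT3 are shown because IGMT2 crossed wild type between mock and rapamycin while its neighbour IGMT3 did not, and both windows hold a W box. The W box, the core bound by WRKY factors, was searched as TTGACC or TTGACT on either strand from 250 bases before to 50 bases after the start, in RefSeq TAIR10.1. It stood in 33.0% of the 19348 windows of all genes tested, in 35.7% of 367 windows of higher genes and in 41.3% of 1195 windows of lower genes. Among the 161 genes whose difference was higher with rapamycin it stood in 92 (57.1%), and among the 21 genes lower with mock and higher with rapamycin in 14 (66.7%). Genes lower with mock held it in 39.9%. The G box CACGTG, bound by other factor families, stood in 8.60% of all windows, 11.99% of the higher and 7.36% of the lower genes. A match is a run of letters and not a site of binding. The 250 bases before the start follow in gene direction, 5′ to 3′, with the W box letters in capitals. The build used by the authors is not given in the sources used here.
IGMT2 (chr1:7396824-7397073, minus strand): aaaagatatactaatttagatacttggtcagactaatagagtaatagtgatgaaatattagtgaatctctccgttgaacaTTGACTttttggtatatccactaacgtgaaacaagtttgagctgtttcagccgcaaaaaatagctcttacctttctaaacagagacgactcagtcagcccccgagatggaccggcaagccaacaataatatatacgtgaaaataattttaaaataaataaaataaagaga
IGMT3 (chr1:7391604-7391853, minus strand): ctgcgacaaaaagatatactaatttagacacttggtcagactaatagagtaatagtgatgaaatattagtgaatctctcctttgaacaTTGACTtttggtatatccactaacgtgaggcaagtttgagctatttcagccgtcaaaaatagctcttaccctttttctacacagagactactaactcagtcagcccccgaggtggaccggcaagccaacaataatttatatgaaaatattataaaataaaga

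**Figure D4:**
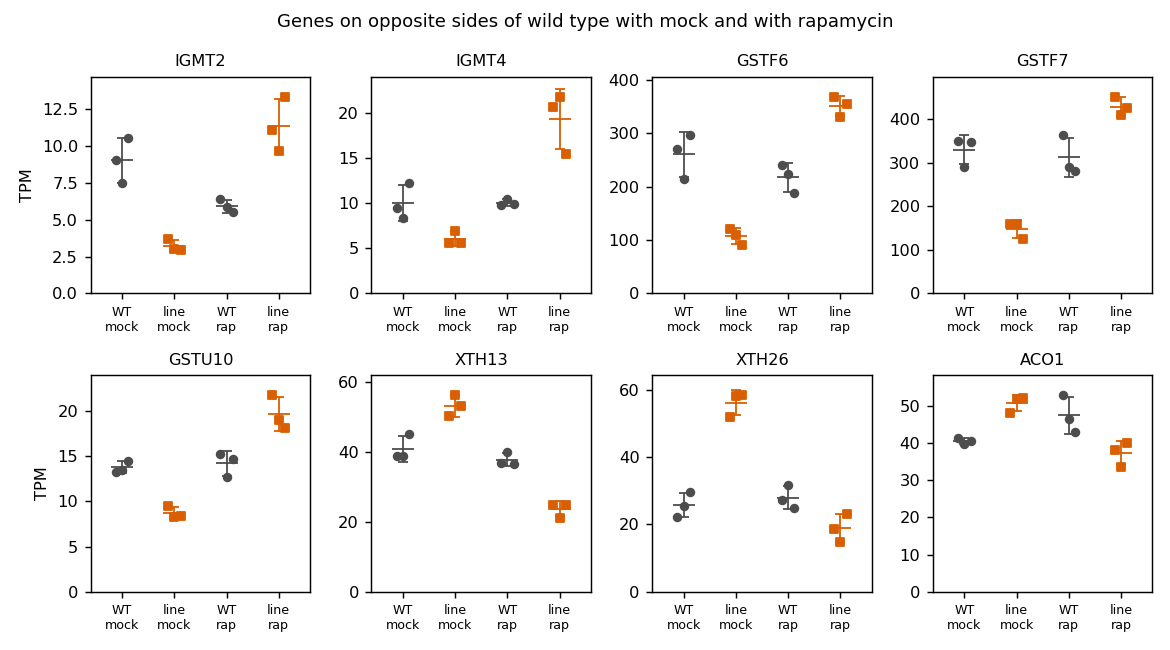
TPM of 8 genes in the 12 libraries of the RGI1 set: wild type (WT) and the RGI1/BAK1 line (line), with mock and with rapamycin (rap). Points are libraries, bars the mean and SD of 3; for IGMT2, IGMT4, GSTF6, GSTF7 and GSTU10 the line lies below wild type with mock and above it with rapamycin, and for XTH13, XTH26 and ACO1 it is the other way round.

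The opposite order was found in some wall genes, XTH26 and XTH13 among them. XTH26 was at 22.3, 25.4 and 29.6 TPM in wild type and 51.9, 58.1 and 58.4 TPM in the line with mock. With rapamycin it was at 27.2, 31.6 and 24.9 TPM and 18.8, 14.8 and 23.1 TPM (log2 fold change -0.55 ± 0.14, limma adjusted p = 0.0311), and the difference was -1.65 ± 0.20 (limma adjusted p = 0.002). Its rapamycin call was lost without wild-type replicate 1 or 2 or line replicate 1 or 2 (highest limma adjusted p = 0.121) and under both other scalings, among other settings. XTH13 was at 38.6, 38.7 and 45.02 TPM and 50.1, 56.1 and 52.9 TPM with mock, against 36.7, 39.8 and 36.6 TPM and 24.8, 20.9 and 24.8 TPM with rapamycin (difference -1.03 ± 0.11, limma adjusted p = 0.00095). SULTR1;1, the sulfate transporter described above, was at 8.57, 10.01 and 10.5 TPM and 8.87, 10.3 and 10.2 TPM with mock, where the groups overlapped, and its difference was -1.08 ± 0.11 (limma adjusted p = 0.000825). ERF73 also overlapped with mock (41.2, 38.6 and 43.8 TPM and 32.3, 36.4 and 41.8 TPM; difference -1.04 ± 0.12, limma adjusted p = 0.00181). For other genes the test of the difference did not pass. PHT1;1 was at 546, 510.03 and 515 TPM and 351, 332 and 288 TPM with mock (difference -0.31 ± 0.11, limma adjusted p = 0.265). THAS1 was at 171, 174 and 169 TPM and 328, 272 and 261 TPM (difference 0.02 ± 0.14, limma adjusted p = 0.977).

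Other genes were lower with mock and not called with rapamycin, which does not show that they were level with wild type. Of the 161 genes called higher in the difference, 104 (64.6%) were of this kind. Of all genes tested, 14.5% were lower with mock, whether or not they were called with rapamycin. The difference is computed from these same mock libraries, so that the count of 104 is a description. The camalexin enzyme CYP71A12 was at 5.67, 3.74 and 5.24 TPM in wild type and 1.92, 2.02 and 1.05 TPM in the line with mock (limma adjusted p = 0.00215). With rapamycin it was at 7.74, 5.21 and 4.81 TPM and 9.17, 7.86 and 7.05 TPM (log2 fold change 0.40 ± 0.19, limma adjusted p = 0.224), and the difference was 1.55 ± 0.27 (limma adjusted p = 0.0146). CYP81F2, which modifies indole glucosinolates ahead of the IGMT enzymes, was at 7.74, 6.89 and 7.53 TPM and 2.64, 2.85 and 2.70 TPM with mock and 7.48, 6.25 and 5.85 TPM and 6.80, 4.65 and 5.20 TPM with rapamycin (difference 0.96 ± 0.16, limma adjusted p = 0.0138). WRKY33, the defence regulator of camalexin genes, was at 13.3, 14.4 and 14.98 TPM and 10.4, 10.2 and 10.96 TPM with mock. It was at 13.2, 12.2 and 14.8 TPM and 14.7, 15.1 and 12.8 TPM with rapamycin, and its difference missed the threshold (0.48 ± 0.11, limma adjusted p = 0.0687). These 3 genes were chosen after their values were seen.

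**Figure D5:**
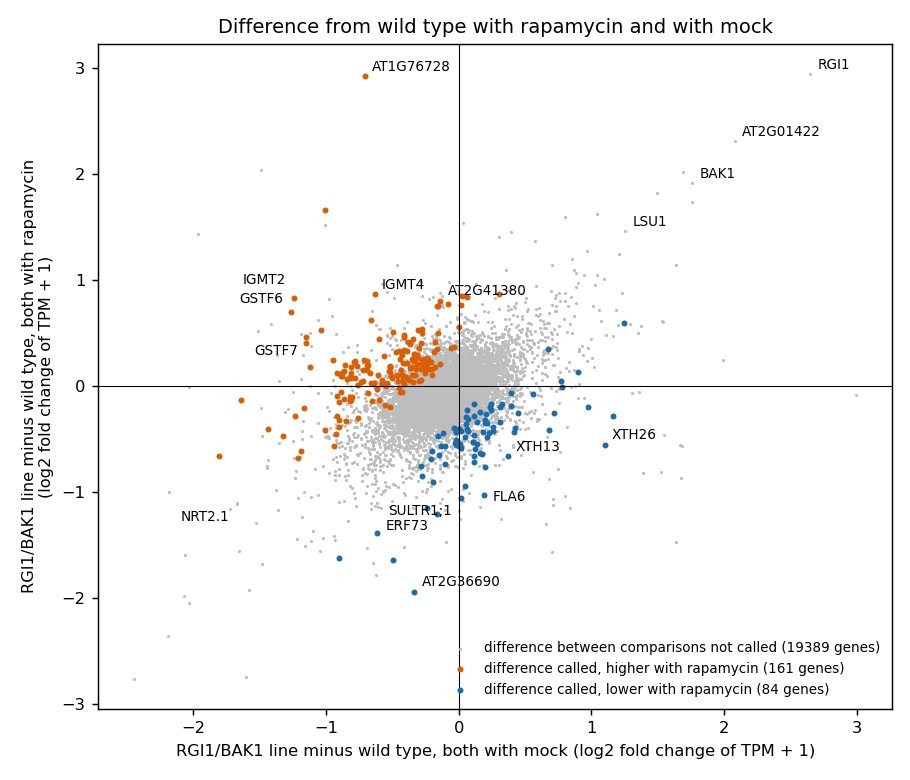
Each point is 1 of 19634 genes: log2 fold change of the line against wild type with mock (x axis) and with rapamycin (y axis), both on the log2(TPM + 1) scale. Genes called in the test of the difference are coloured (161 higher and 84 lower with rapamycin); IGMT2, GSTF6 and GSTF7 lie upper left of the origin, XTH13 and XTH26 lower right, and RGI1 and BAK1 are high on both axes.

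The RiD-RGI5/BAK1 line, compared with its own wild type at 100 nM rapamycin in 6 other libraries, gave 663 calls of 20113 genes (3.30%), 397 (1.97%) higher and 266 (1.32%) lower, in a fit of all 30 libraries. The dose differs from the 1 µM used here, so that line and dose cannot be told apart. Among genes tested in both, 57 were higher in both lines, 15.3% of the 372 higher genes here and 14.4% of those higher in the RGI5 line. Lower in both were 77, 6.37% of the 1208 lower genes here and 30.2% of those lower in the RGI5 line. The 372 and 1208 genes were called in the fit of 12 libraries, so that these shares set unlike fits side by side. In the fit of all 30 libraries the RGI1 line comparison had 986 calls, 205 higher and 781 lower. The test of the difference between the line comparisons called 501 genes (2.49%), 63 (0.313%) where the RGI1 line's difference was higher and 438 (2.18%) where it was lower, and 107 and 191 with median-ratio scaling. The protein folding genes of the endoplasmic reticulum had 0 calls in the RGI5 line, and 6 of the 15 were lower in the RGI1 line by that test. Of the triterpene cluster genes, 5 were higher in the RGI5 line and 0 differed by the test. The count of 501 was 152 and 296 without line replicates 1 and 3, and 238 and 168 without wild-type replicates 2 and 4. It was 226 and 328 without replicates 2 and 4 of the wild type of the RGI5 set.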

How the data were processed

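Roots of the RGI1/BAK1 line and wild type were sequenced as mRNA, 3 libraries a group. The authors deposited TPM (transcripts per 1000000) for 40812 transcript models in 30 libraries, and each column sums to 1000000. Salmon and DESeq2 are named in the submitters' processing notes with no version or role. No index or build is named there (not given in the sources used here). Since TPM hold no library size, depth is unknown, and no counting interval can be given. The column of each wild-type library was matched to its sample from the column name and the titles.

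TPM were summed to 32753 loci and tested as log2(TPM + 1) with limma 3.58.1 (lmFit, eBayes with trend, two-sided) in R 4.3.3, on genes at 1 TPM or more in at least 3 of the 12 libraries of the RGI1 set, with Benjamini-Hochberg adjustment over all genes tested. The comparison with the RGI5 line used all 30 libraries. The code was tested on simulated data. Alternatives were other scalings, filters, pseudocounts, a replicate block, other sets of libraries and leaving out each library. Gene names came from RefSeq TAIR10.1, which matched 32048 loci.

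The members, the 35 gene lists and the tests were chosen with earlier results of these data known, and 6 further lists after their values were seen. Genes named were up to 15 with the highest and 15 with the lowest fold change among called genes with a mean of at least 5 TPM in a group and no overlap, up to 4 a list with at least 2 calls, up to 10 called here and in the difference from mock, a fixed set of receptor and root genes, and others named in the text as chosen later. Further members of a list are named where its counts are described, and were chosen after their values were seen. Replicate numbers were not used as pairs in the main test, and the labels do not say whether same-numbered libraries belong together. A further promoter sequence is not reported here.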

Additional observations from a re-analysis of the deposited data

Results flagged for a closer look

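The difference of the line from wild type was not the same with rapamycin as with mock for 245 genes, by limma's test of that difference. Between the RGI1 and the RGI5 line comparisons, both with rapamycin but at different doses, that test called 501 genes. Of the genes named by rule, 28 were called both with rapamycin and in the difference from mock, in limma's test of the difference. The change in their log2 difference from mock to rapamycin was above 0 in 8 of them: AT1G76728 (3.63), IGMT2 (2.07), GSTF6 (1.96), GSTU10 (1.04), AT2G41380 (0.94), AMT1;1 (0.59), ERF5 (0.42), PDR9 (0.32). It was below 0 in 20, the lowest being AT2G36690 (-1.61), FLA6 (-1.22), AT4G21870 (-1.14), SULTR1;1 (-1.08), ERF73 (-1.04), XTH13 (-1.03), XTH12 (-0.82), PYL6 (-0.77), PP2-A6 (-0.72), SAUR35 (-0.72). The others below 0 were PYL5 (-0.71), ACO1 (-0.65), CYP72A14 (-0.64), AT1G05240 (-0.62), RHS19 (-0.58), AT5G38940 (-0.57), AT4G26010 (-0.57), AT3G23190 (-0.51), MOP10 (-0.41), SAUR32 (-0.41). AT1G76728 is listed at 0 in wild type with rapamycin, so that its value depends on the pseudocount. The 28 genes were picked by calls in these very comparisons, so that their split into 8 and 20 is a description. Of all 1580 genes called with rapamycin, 126 were called in the difference. That test called 161 genes higher and 84 lower over all genes tested. These values were not weighed further.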

How the results depend on the processing

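The 1580 calls with rapamycin became 918 with a replicate block, 986 with all 30 libraries in a single fit, 937 with only the 6 rapamycin libraries, 77 with a log2 fold change of 1 or more in size, and 905 to 1659 when single libraries were left out. The 3239 mock calls became 1796 with quantile normalization, 1693 with median-ratio scaling, 85 at that fold, and 1559 to 3515 when single libraries were left out. The 245 calls in the difference became 150 with no filter on low values, 55 with the replicate block, 28 with all 30 libraries, 31 at that fold, and 116 to 258 when single libraries were left out. The 501 calls between the lines became 298 with median-ratio scaling and 152 to 738 when single libraries were left out. The deviations of same-numbered libraries had an r of -0.04 to 0.07 over 13 pairs, none over 0.1. For 41 pairs with different numbers it was -0.17 to 0.17. With 3 libraries a group this measure cannot show whether same-numbered libraries were handled together, which the labels do not say. Of 112 called genes named by rule, 84 kept the call in every fit without a library. Under the other alternatives, the fold threshold not counted, 71 kept it, and 69 kept it in both. No direction reversed. The cause of these changes was not tested. Depth is unknown, which limits what can be said of weakly expressed genes.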

Other observations

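Further lists gave few calls with rapamycin. Of 63 primary auxin response genes, 7 were lower and 2 higher, and 3 were lower with median-ratio scaling; without single libraries 3 to 8 were lower, and the count moved by more than 1.5 times without wild-type replicate 2 or 4, mock wild-type replicate 2 or mock line replicate 4. Of 27 genes of the Casparian strip and suberin, barriers of the endodermis, 1 was higher and 1 lower with rapamycin, beside 0 higher and 11 lower with mock, and 1 was called higher and 0 lower in the test of the difference. With median-ratio scaling and quantile normalization these counts were 2 and 3 higher and 0 lower with rapamycin, 6 and 7 lower with mock, and 0 in the difference. Of 6 tested heat shock genes, 2 were higher with rapamycin and 4 with mock. Of 11 genes of ethylene synthesis and response, 3 were lower and 1 higher, and with median-ratio scaling 1 was lower. The 12 circadian clock genes and the 7 genes of the TOR pathway had 0 calls with rapamycin by limma, with 1 gene of each list at an unadjusted p below 0.05.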
